A study of Mus musculus with 6 samples.

Results

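The genes described here are the lymphotoxin β receptor gene *Ltbr*, the ligands of the receptor and the TNF receptors to which they are related, 10 of the 26216 gene names in the deposited RNA-seq files. They were chosen by name and comprise 4 ligand genes (*Ltb*, *Lta*, *Tnfsf14* and *Tnf*) and 6 receptor genes (*Ltbr*, *Tnfrsf14*, *Tnfrsf1a*, *Tnfrsf1b*, *Fas* and *Cd27*). RNA was sequenced from mouse bone marrow LT/ST-HSCs, the long-term and short-term hematopoietic stem cells, which were FACS-purified as lineage-negative, Annexin-V-negative cells with sca1, c-kit and CD150 but without CD48 on their surface. The HSCs came from mixed chimeras, lethally irradiated Ly5.1/Ly5.2 mice that had received LSKs (Lin-sca1+c-kit+ bone marrow cells) of *Ltbr*-/- (CD45.2) and of Ly5.1 (CD45.1) donors, and they were sorted at week 6. Each genotype was represented by 3 biological replicates to which the cells of 6 chimeras had been pooled, so both genotypes had passed through the same irradiated, *Ltbr*-proficient hosts. *Ltbr*-/- donors, constitutive knockout mice, were 13 weeks old in replicate 1, 10 weeks old in replicate 2 and 10 to 13 weeks old in replicate 3, whereas the Ly5.1 donors were 7 to 13 weeks old in all replicates. Genotype could not be told apart from CD45 allele and was not fully separated from donor age.

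The LTβR is a membrane receptor of the TNF receptor superfamily. It binds LIGHT, the product of *Tnfsf14*, and the heterotrimer of lymphotoxin α (*Lta*) and lymphotoxin β (*Ltb*), of which the β chain anchors the complex in the membrane. Ligation of the receptor recruits TRAF adaptors and activates the classical and the alternative NF-κB pathway, and in the body the receptor is best known for the formation of lymph nodes. Soluble homotrimers of lymphotoxin α and TNF bind the receptors encoded by *Tnfrsf1a* and *Tnfrsf1b*, and LIGHT also binds HVEM, the product of *Tnfrsf14*. FAS carries a death domain, and CD27 is a costimulatory receptor for CD70 that is also found on hematopoietic progenitors.

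All 10 genes matched a RefSeq promoter window of GRCm38.p6. The 250 bases before the annotated start are shown for *Ltbr*, the gene that differed most, and for 3 ligand genes whose levels in LT/ST-HSCs were high (*Ltb*), intermediate (*Tnfsf14*) and low (*Tnf*). Capitals mark the letters of 4 motifs that were searched on both strands and that did not overlap each other.
Ltbr, chr6:125313886-125314135, minus strand: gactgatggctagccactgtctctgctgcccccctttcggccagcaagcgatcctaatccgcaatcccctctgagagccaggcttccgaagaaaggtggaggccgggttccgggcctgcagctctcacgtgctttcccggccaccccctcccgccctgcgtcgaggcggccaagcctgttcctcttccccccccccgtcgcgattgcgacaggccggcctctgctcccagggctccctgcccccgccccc
Ltb, chr17:35194257-35194506, plus strand: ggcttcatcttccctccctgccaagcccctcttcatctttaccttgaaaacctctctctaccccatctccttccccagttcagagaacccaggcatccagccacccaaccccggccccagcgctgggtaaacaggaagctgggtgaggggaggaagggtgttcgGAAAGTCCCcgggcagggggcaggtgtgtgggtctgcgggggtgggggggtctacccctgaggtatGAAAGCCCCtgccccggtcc
Tnfsf14, chr17:57194182-57194431, minus strand: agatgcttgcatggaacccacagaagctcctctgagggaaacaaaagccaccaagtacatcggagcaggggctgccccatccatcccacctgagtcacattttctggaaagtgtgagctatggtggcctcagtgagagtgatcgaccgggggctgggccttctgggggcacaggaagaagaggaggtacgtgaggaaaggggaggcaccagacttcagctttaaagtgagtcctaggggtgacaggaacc
Tnf, chr17:35202008-35202257, minus strand: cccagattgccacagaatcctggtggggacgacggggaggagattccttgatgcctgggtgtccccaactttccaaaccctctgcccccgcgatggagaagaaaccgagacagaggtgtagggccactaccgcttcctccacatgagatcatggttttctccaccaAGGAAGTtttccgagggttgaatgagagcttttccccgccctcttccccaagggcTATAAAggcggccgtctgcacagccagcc
The NF-κB letters GGGNNNTTC were found in *Ltb*, where on the opposite strand they filled stretches that began 86 and 20 bases before the start, and in 11.8% of all 32851 windows of this length. The ETS family letters AGGAAGT began 84 bases before the start of *Tnf* and were present in 7.69% of all windows. The TATA box letters TATAAA began 29 bases before the start of *Tnf* and, in a window not shown, 167 bases before that of *Lta*, and 12.4% of all windows held them. For *Lta*, *Tnfrsf14*, *Fas* and *Cd27*, the start used lies inside the gene span given below, so the window overlaps the gene. The TATA box letters of *Lta* fall in this overlap. The Runx letters TGTGGT, present in 14.0% of all windows, were found in none of the 10. The windows of *Ltbr* (GC content 69.2%) and *Tnfsf14* (56.0%) thus held none of the searched letters, nor did those of the other 5 receptor genes. A match describes these letters only and no factor binding was measured.

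Values are the deposited signal, taken here as 2 to the power of a regularized log, a log2 expression value that is scaled for library size and drawn towards the gene's mean where expression is weak. Fold changes of weak genes are thus understated, and levels of different genes can be compared only per kb of mRNA. Without counts in the files, read depth per sample stays unknown. The 13108 names in the upper 50% by mean were tested with limma, and a gene was called when its Benjamini-Hochberg adjusted p was under 0.05 and its fold at least 1.5. All p-values rest on 3 pooled replicates per genotype. In limma, the spread of each gene between replicates was moderated towards that of genes at a similar level. The limma p-values thus also draw on the spread of other genes. An exact two-sided permutation test of 3 against 3 cannot go below 0.1. In bulk RNA, fewer cells that express a gene and less RNA per cell cannot be told apart.

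First, the targeted gene was examined, which checks the labels. The signals of *Ltbr* were 24.2, 26.4 and 23.1 in *Ltbr*-/- and 564, 549 and 522 in Ly5.1 LT/ST-HSCs. All *Ltbr*-/- values lay below all Ly5.1 values, in accordance with the labels. The mean of 24.6 ± 1.70 (SD, n = 3) was 4.51% of the Ly5.1 mean of 545 ± 21.3 (SD, n = 3). The log2 fold change was -4.47 (SE 0.08, 95% interval -4.64 to -4.30, limma adjusted p = 2.15e-32; exact permutation p = 0.1). Per kb of mRNA, *Ltbr* stood at the 82.1st percentile of 19157 names with a protein-coding transcript in Ly5.1 LT/ST-HSCs and at the 47.0th in *Ltbr*-/- LT/ST-HSCs.

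Of the 10 genes, 9 passed the filter on low values, and only *Lta* did not. *Ltbr*, the deleted gene, whose call the design gives in advance, was the only one of the 9 that was called. Of all tested genes, 2.78% were called (0.061% lower and 2.72% higher). Without the fold threshold, *Cd27* (lower in *Ltbr*-/-) and *Fas* (higher) also had a limma adjusted p under 0.05. With the deleted *Ltbr* these were 3 of 9. Of all tested genes, 14.8% had such a value (4.18% lower and 10.6% higher). The median log2 fold change of the 9 genes, *Ltbr* included, was -0.09, and that of all tested genes -0.01.

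**Figure D1:**
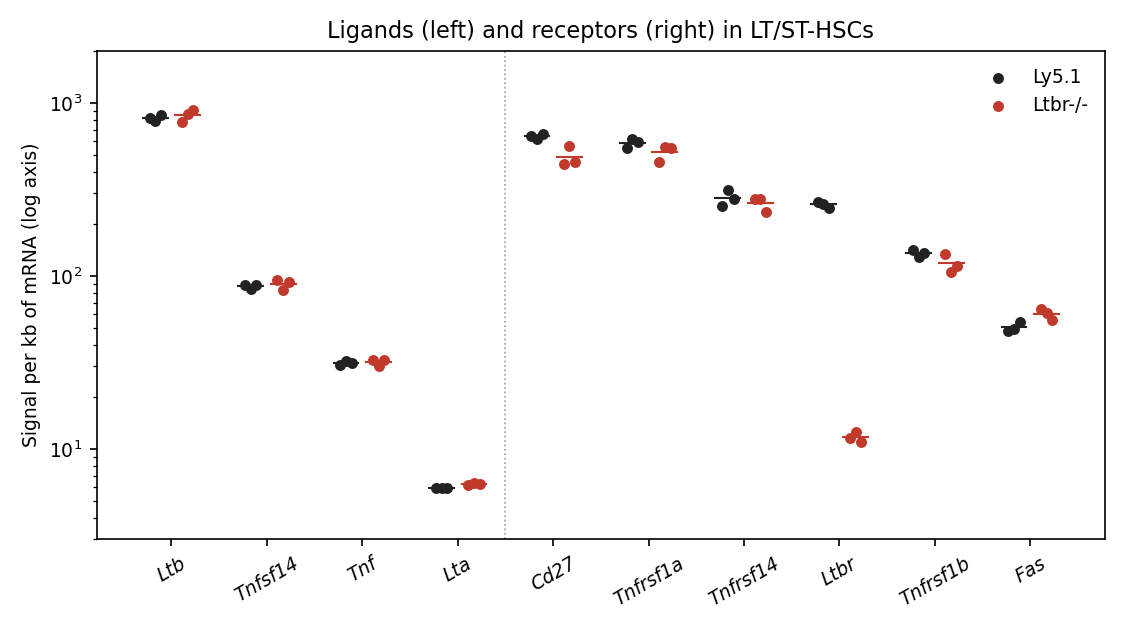
Signal per kb of the longest mRNA on a log axis for the 4 ligand genes (left of the dotted line) and the 6 receptor genes (right) in Ly5.1 (black) and Ltbr-/- (red) LT/ST-HSCs, with 1 point per replicate and a line at the mean of 3. Ltb was highest with means of 819 in Ly5.1 and 850 in Ltbr-/-, Lta lowest with 5.98 and 6.27, and Ltbr went from 259 in Ly5.1 to 11.7 in Ltbr-/-.

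The order of the levels per kb in Ly5.1 LT/ST-HSCs was *Ltb* (819 ± 35.4), *Cd27* (641 ± 19.6), *Tnfrsf1a* (588 ± 33.6), *Tnfrsf14* (281 ± 30.4), *Ltbr* (259 ± 10.1), *Tnfrsf1b* (135 ± 6.52), *Tnfsf14* (87.1 ± 2.71), *Fas* (50.4 ± 3.37), *Tnf* (31.3 ± 0.683) and *Lta* (5.98; each signal per kb ± SD, n = 3). Among neighbours in this order, the replicates overlapped only for *Tnfrsf14* and *Ltbr*. *Ltb* was the highest and *Lta* the lowest of all 10, although both encode chains of 1 heterotrimer. In *Ltbr*-/- LT/ST-HSCs, *Cd27* (488 ± 67.2) came after *Tnfrsf1a* (521 ± 55.5) with overlapping replicates, and *Ltbr* (11.7 ± 0.807) stood between *Tnf* (31.7 ± 1.52) and *Lta* (6.27 ± 0.0613). Levels per length also depend on the transcript used, and per kb of coding sequence *Cd27* came first and *Ltb* second, while 6 of 10 genes kept their place.

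Next, the ligands were compared between the genotypes. *Ltb*, which anchors the lymphotoxin heterotrimer, had signals of 899, 1006 and 1052 in *Ltbr*-/- and of 949, 910 and 992 in Ly5.1 replicates. The genotypes overlapped, with means of 986 ± 78.3 and 950 ± 41.1 (SD, n = 3) and a log2 fold change of 0.05 (95% interval -0.13 to 0.23, limma adjusted p = 0.767). *Tnfsf14*, which encodes LIGHT, had signals of 175, 154 and 171 in *Ltbr*-/- and of 164, 155 and 164 in Ly5.1 replicates. They overlapped as well, with means of 166 ± 11.2 and 161 ± 5.0 (SD, n = 3) and a log2 fold change of 0.05 (95% interval -0.13 to 0.23, limma adjusted p = 0.778). *Tnf* had signals of 53.2, 49.1 and 53.6 in *Ltbr*-/- and of 50.3, 52.5 and 51.3 in Ly5.1 replicates, and the log2 fold change was 0.02 (95% interval -0.11 to 0.14, limma adjusted p = 0.903). None of these 3 ligands passed the test, and the intervals reached at most 0.23 on the log2 scale. When samples were centred on ribosomal protein genes, the median of all tested genes was -0.89. This centring lowered the log2 fold change of every gene by the same amount, because the median ribosomal protein gene was itself higher in *Ltbr*-/-. In that scaling the values became -0.83 for *Ltb* and *Tnfsf14* and -0.86 for *Tnf*, close to that median. All 3 were called lower, as were 12037 of the 13108 tested genes.

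*Lta*, which encodes the α chain, was too low to be tested. Its signals were 8.61, 8.77 and 8.64 in *Ltbr*-/- and between 8.26858 and 8.26906 in all Ly5.1 replicates. The *Ltbr*-/- values lay just above the Ly5.1 values, and in the fit without the filter the log2 fold change was 0.07 (SE 0.03, limma adjusted p = 0.112; exact permutation p = 0.1). A change of *Lta* was thus not detectable in values that were drawn this close together.

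Then, the receptors for the same ligands were analyzed. *Tnfrsf14*, which encodes HVEM, had signals of 327, 325 and 275 in *Ltbr*-/- and of 296, 367 and 327 in Ly5.1 replicates. The genotypes overlapped, with means of 309 ± 29.3 and 330 ± 35.7 (SD, n = 3) and a log2 fold change of -0.09 (95% interval -0.30 to 0.11, limma adjusted p = 0.593). *Tnfrsf1a*, the TNF receptor with a death domain, had signals of 986, 1198 and 1187 in *Ltbr*-/- and of 1187, 1328 and 1286 in Ly5.1 replicates. *Ltbr*-/- replicate 1 lay well below the Ly5.1 range and the others at its lower end, and the log2 fold change was -0.18 (95% interval -0.36 to 0.01, limma adjusted p = 0.204). *Tnfrsf1b*, the TNF receptor without a death domain, had signals of 512, 404 and 435 in *Ltbr*-/- and of 538, 489 and 519 in Ly5.1 replicates. Here *Ltbr*-/- replicate 1 lay within the Ly5.1 range and the other *Ltbr*-/- replicates below it. The log2 fold change was -0.20 (95% interval -0.40 to -0.004, limma adjusted p = 0.175), which did not pass the test over all genes. Centred on ribosomal protein genes, where the median gene was -0.89, these 3 receptors became -0.98, -1.06 and -1.08 in this order. They were called lower, as were 12037 of the 13108 tested genes in that scaling.

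*Cd27* was lower in *Ltbr*-/- LT/ST-HSCs. Its signals were 689, 881 and 713 in *Ltbr*-/- and 1002, 968 and 1028 in Ly5.1 replicates. All *Ltbr*-/- values lay below all Ly5.1 values, which was the case for 13.5% of all tested genes. The *Ltbr*-/- mean of 761 ± 105 (SD, n = 3) was 76.1% of the Ly5.1 mean of 999.3 ± 30.5 (SD, n = 3), with a log2 fold change of -0.40 (SE 0.09, 95% interval -0.59 to -0.21, limma adjusted p = 0.00223; exact permutation p = 0.1). The fold stayed under the threshold of 1.5, except when samples were centred on ribosomal protein genes (-1.28, which is -0.39 from the median gene in that scaling), and 94.5% of the tested genes had a smaller change in either direction. *Ltbr*-/- replicates differed by up to 0.35 on the log2 scale and Ly5.1 replicates by up to 0.09. Without any 1 replicate, the log2 fold change was between -0.51 and -0.33 and the adjusted p under 0.05 each time.

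*Fas* was slightly higher in *Ltbr*-/- LT/ST-HSCs. Its signals were 95.03, 90.04 and 82.6 in *Ltbr*-/- and 70.7, 73.0 and 80.2 in Ly5.1 replicates. All *Ltbr*-/- values lay above all Ly5.1 values, which was the case for 17.0% of all tested genes, and the lowest *Ltbr*-/- value was close to the highest Ly5.1 value. The means were 89.2 ± 6.26 and 74.6 ± 4.99 (SD, n = 3), with a log2 fold change of 0.26 (SE 0.08, 95% interval 0.10 to 0.41, limma adjusted p = 0.0174; exact permutation p = 0.1), which became -0.62 when samples were centred on ribosomal protein genes, 0.27 higher than the median gene in that scaling. The adjusted p rose to 0.108 without *Ltbr*-/- replicate 1, to 0.0503 without *Ltbr*-/- replicate 2, to 0.0922 without Ly5.1 replicate 1 and to 0.0702 without Ly5.1 replicate 2.

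**Figure D2:**
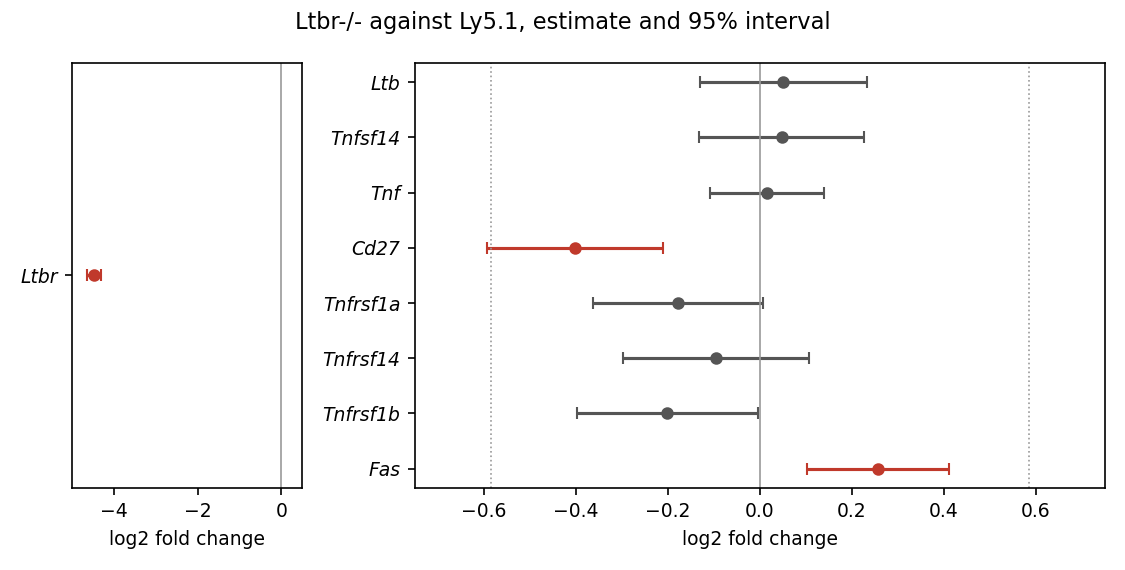
Log2 fold change of Ltbr-/- against Ly5.1 LT/ST-HSCs with 95% intervals from limma for the 9 tested genes, Ltbr in a panel with its own axis. Red marks an adjusted p under 0.05 and dotted lines mark a fold of 1.5: Ltbr (-4.47) is far below them, Cd27 (-0.40) and Fas (0.26) lie between them and the 3 ligands close to 0. Centred on ribosomal protein genes (not drawn), Cd27 was -1.28, Fas -0.62 and the ligands -0.86 to -0.83, where the median gene was -0.89.

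*Ltbr*, *Cd27* and *Tnfrsf1a* lie together on chromosome 6 of GRCm38.p6, where *Ltbr* spans chr6:125306571-125313885. *Cd27* (chr6:125232620-125237136) is 69.4 kb and *Tnfrsf1a* (chr6:125349723-125362483) 35.8 kb away. *Ltb* (chr17:35194507-35196305), *Tnf* (chr17:35199367-35202007) and *Lta* (chr17:35203165-35205578) form a second cluster, whereas *Tnfsf14* (chr17:57189474-57194181), *Tnfrsf1b* (chr4:145212368-145246870), *Tnfrsf14* (chr4:154918487-154928620) and *Fas* (chr19:34290647-34327775) lie apart. The position of the genes was not part of their choice, so the neighbourhood of the deleted gene was examined.

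Within 1 Mb of *Ltbr*, 42 other genes were tested. Of these, 2 were called, against 2.78% of all tested genes (2.72% higher). Both were higher in *Ltbr*-/- and both encode enzymes of glycolysis. *Gapdh* rose from 1308 ± 74.8 to 2201 ± 109 (SD, n = 3; log2 fold change 0.75, limma adjusted p = 5.60e-09) and *Tpi1* from 3742 ± 342 to 6037 ± 134 (SD, n = 3; 0.69, adjusted p = 2.83e-09). Centred on ribosomal protein genes these values became -0.13 and -0.19, which is 0.76 and 0.71 above the median gene in that scaling. Without the fold threshold 4 of the 42 were higher, against 10.6% of all tested genes, and *Cd27* alone was lower, 2.38% of the 42 against 4.18%. The higher genes besides *Gapdh* and *Tpi1* were *Phb2*, which encodes prohibitin 2 (0.34, adjusted p = 0.00167), and *Lag3*, an inhibitory receptor (0.32, adjusted p = 0.0332). These values too fell below 0 when centred on ribosomal protein genes (-0.54 and -0.56), but lay 0.36 and 0.33 above the median gene in that scaling. The value of *Lag3* had an adjusted p under 0.05 only without *Ltbr*-/- replicate 1 or Ly5.1 replicate 3 among the 6 fits that left out 1 replicate, and was between 0.140 and 0.164 in the others.

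The 16 tested genes within 0.25 Mb had a median log2 fold change of -0.08. *Scnn1a*, the closest neighbour, differed by 0.07 on the log2 scale (adjusted p = 0.437) and *Plekhg6*, next to *Tnfrsf1a*, by -0.01 (adjusted p = 0.943). *Cd9* (-0.25, adjusted p = 0.0646), *Vwf* (-0.22, adjusted p = 0.0555) and *Chd4* (-0.17, adjusted p = 0.0586) came nearest to the threshold among those that missed it. The remaining 8, namely *Lpar5*, *Nop2*, *Iffo1*, *Ncapd2*, *Mrpl51*, *Vamp1*, *Tapbpl* and the lncRNA gene *E130112N10Rik*, were between -0.16 and 0.12. *E130112N10Rik* overlaps *Cd27* and had signals of 19.4 ± 0.168 in *Ltbr*-/- and 19.3 ± 0.523 in Ly5.1 (SD, n = 3). The library kit keeps the strand, but whether the counting used it is not given in the sources used here, so reads of the overlapping genes cannot be told apart.

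**Figure D3:**
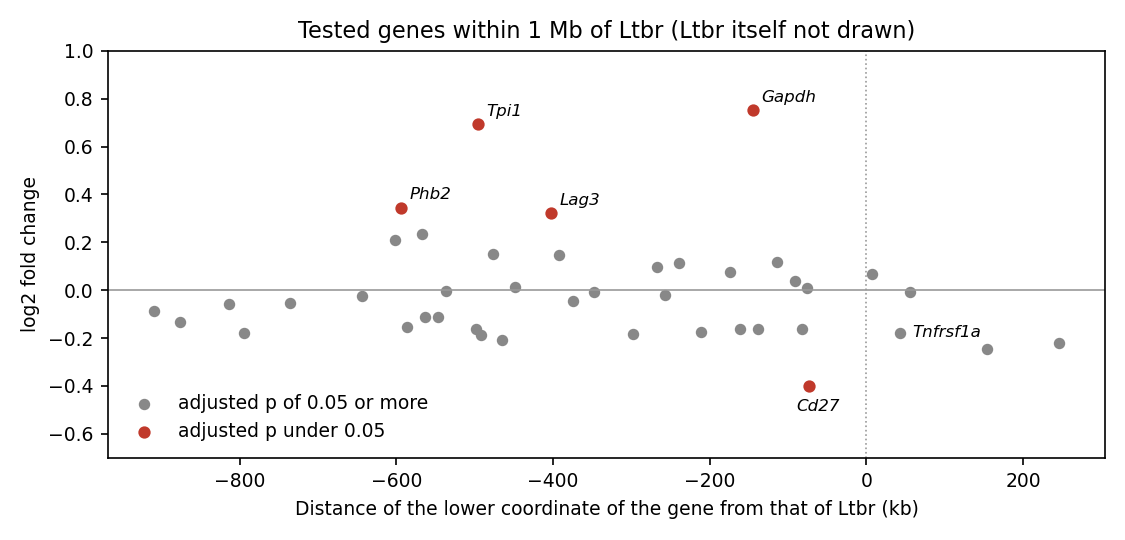
Log2 fold change of the 42 tested genes within 1 Mb of Ltbr against the distance of their lower coordinate from that of Ltbr in kb, with red for an adjusted p under 0.05. Cd27 (-0.40) is the 1 red point below 0, while Gapdh, Tpi1, Phb2 and Lag3 lie above 0. Centred on ribosomal protein genes (not drawn), these higher genes fell below 0 but stayed 0.33 to 0.76 above the median gene of -0.89.

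The genes whose profile over the 6 samples was most like that of a gene with an adjusted p under 0.05 were identified by the Euclidean distance between log2 values, each gene centred on its own mean. For *Ltbr*, whose own distance from a flat profile was 5.48, the closest were *Ctse* (cathepsin E, distance 2.42, log2 fold change -2.57), *Igkc* (immunoglobulin κ constant region, 4.01, -1.21) and *Igkv1-122* (4.21, -1.04). Even the closest of them thus remained far from *Ltbr*. For *Cd27* (0.565 from flat) the closest were *9430020K01Rik* (distance 0.142, log2 fold change -0.36), *Mob3a* (0.154, -0.29) and *Cxxc5* (0.167, -0.31), and for *Fas* (0.372 from flat) *Obfc1* (0.0606, 0.27), *1300002E11Rik* (0.0774, 0.23) and *Fam100b* (0.0938, 0.20). These distances describe 6 samples in 2 groups and carry no test.

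To place the 10 genes in their pathway, the other TNF-family ligands and receptors, the adaptors with the NF-κB genes, and known targets of the receptor were read from the same fit. Of 14 other ligand genes, 6 were tested, and 4 (*Tnfsf15*, *Tnfsf18*, *Cd40lg* and *Cd70*, the ligand of CD27) were listed at 1 in all samples. None of the 6 was called by limma, against 2.78% of all tested genes, and 1 had an adjusted p under 0.05 (also 1 at an unadjusted p under 0.05, which 27.1% of all tested genes had). This was *Tnfsf9*, the ligand of 4-1BB, with signals of 223, 189 and 229 in *Ltbr*-/- and of 148, 172 and 170 in Ly5.1 replicates. The genotypes did not overlap, with *Ltbr*-/- higher, which was the case for 17.0% of all tested genes. The log2 fold change was 0.39 (SE 0.10, limma adjusted p = 0.00363). Centred on ribosomal protein genes it became -0.50, which is 0.40 above the median gene in that scaling. *Tnfsf4*, the ligand of OX40, was next, at 0.11 on the log2 scale (adjusted p = 0.193), and the median of the list was 0.08. *Fasl*, the ligand of FAS, was too low to be tested, with 7.40 ± 0.10 in *Ltbr*-/- and 7.60 ± 0.276 in Ly5.1 (SD, n = 3).

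Of 24 other receptor genes, 13 were tested and 1 was called, against 2.78% of all tested genes. This was *Tnfrsf9*, which encodes 4-1BB, the receptor for the product of *Tnfsf9*. Its signals were 399, 408 and 362 in *Ltbr*-/- and 180, 235 and 233 in Ly5.1 replicates. Every *Ltbr*-/- value was above the highest Ly5.1 value, which was the case for 17.0% of all tested genes. The mean was 390 ± 24.2 against 216 ± 31.1 (SD, n = 3), and the log2 fold change was 0.86 (SE 0.10, limma adjusted p = 2.16e-08), or -0.02 when centred on ribosomal protein genes, a value 0.87 higher than that of the median gene in the same scaling. Without any 1 replicate it was between 0.73 and 0.93. No other receptor gene of this list had an adjusted p under 0.05, and the median was -0.01. *Tnfrsf8*, *Tnfrsf11b* and *Tnfrsf19* were listed at 1 in all samples.

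All 27 adaptor and NF-κB genes were tested. None was called by limma (against 2.78% of all tested genes), and 8 had an unadjusted p under 0.05 (against 27.1%). Without the fold threshold, 2 were higher and 2 lower at an adjusted p under 0.05 (against 14.8% of all tested genes). The median log2 fold change was -0.07. Both lower genes encode deubiquitinases that restrain NF-κB signaling. *Tnfaip3*, which encodes A20, had signals of 285, 276 and 273 in *Ltbr*-/- and of 379, 340 and 372 in Ly5.1 replicates (log2 fold change -0.39, SE 0.09, adjusted p = 0.00279). The genotypes did not overlap, with *Ltbr*-/- lower, which was the case for 13.5% of all tested genes. *Cyld* went from 994 ± 72.8 in Ly5.1 to 821 ± 40.6 in *Ltbr*-/- (SD, n = 3; -0.28, adjusted p = 0.0329), but of the 6 fits without 1 replicate only the one without Ly5.1 replicate 3 kept an adjusted p under 0.05, and the others gave 0.0512 to 0.153. The higher genes were *Nfkbib*, which encodes the inhibitor IκBβ (574 ± 18.1 to 718 ± 29.98, SD, n = 3; 0.32, adjusted p = 0.0110), and *Traf4* (343 ± 13.8 to 420 ± 34.5; 0.29, adjusted p = 0.0334). Centred on ribosomal protein genes they became -0.56 and -0.59, which is 0.33 and 0.30 above the median gene in that scaling. Without *Ltbr*-/- replicate 2 the adjusted p of *Nfkbib* was 0.0608, and that of *Traf4* stayed under 0.05 only without *Ltbr*-/- replicate 2 or Ly5.1 replicate 2, with 0.0553 to 0.194 otherwise. *Map3k14*, which encodes NIK, the kinase of the alternative pathway, had a log2 fold change of -0.07, and its downstream genes *Nfkb2* and *Relb* of 0.03 and 0.01.

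Of 17 target genes, 9 were tested, and the stromal targets *Ccl21a*, *Cxcl13*, *Madcam1*, *Glycam1* and *Chst4* were listed at 1 in all samples. None of the 9 was called by limma, against 2.78% of all tested genes, and 3 had an unadjusted p under 0.05, against 27.1%. Only *Tnfaip3*, which the previous list also holds, had an adjusted p under 0.05. The second smallest adjusted p was that of *Vcam1*, an adhesion molecule, at -0.24 on the log2 scale (adjusted p = 0.116), which became -0.39 (adjusted p = 0.00599) without *Ltbr*-/- replicate 2. The median of the list was 0.03, and 7 of the 9 were above 0, as were 6079 of all 13108 tested genes. Of the tested targets, *Nfkb2*, *Relb*, *Traf1*, *Birc3*, *Nfkbia* and *Tnfaip3* are also adaptor or NF-κB genes and *Tnfsf13b* is also a ligand.

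**Figure D4:**
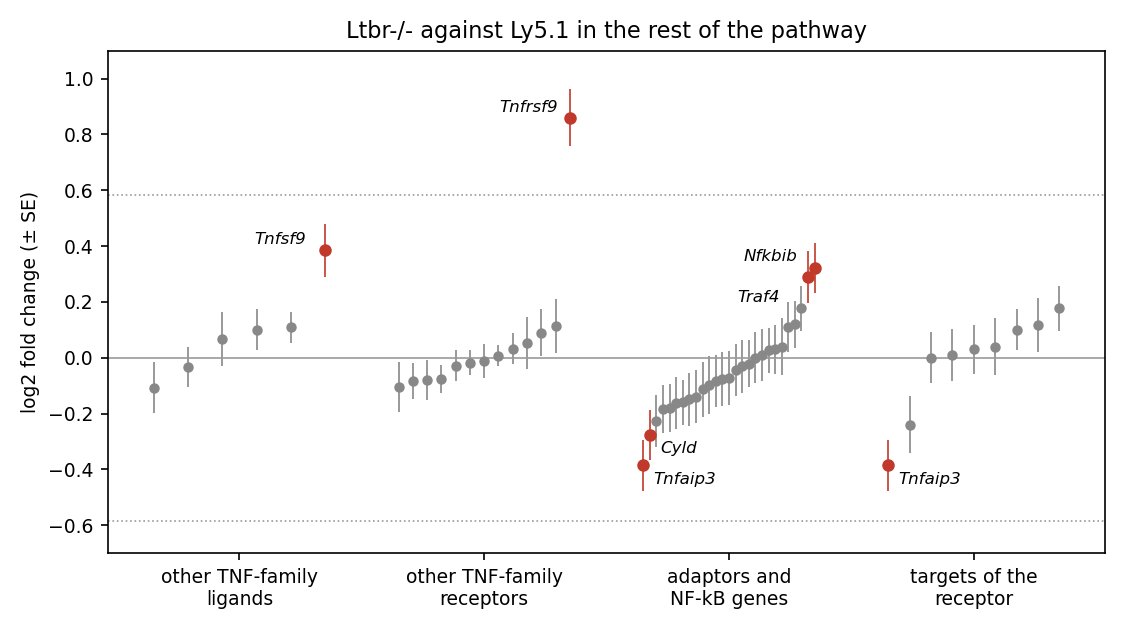
Log2 fold change ± SE of Ltbr-/- against Ly5.1 LT/ST-HSCs for the tested genes of 4 pathway lists, ordered by value within each list, with red for an adjusted p under 0.05 and dotted lines at a fold of 1.5. Tnfrsf9 (0.86) is the 1 gene beyond these lines. Centred on ribosomal protein genes (not drawn) it was -0.02, which is 0.87 above the median gene.

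Markers of the sorted cells and of other cells were read beside these results. All 12 HSC markers, *Kit*, *Slamf1* and *Ly6a* among them, were tested and none was called, against 2.78% of all tested genes. At an unadjusted limma p under 0.05, 5 of the 12 were lower, and 27.1% of all tested genes had such a p in either direction. The median log2 fold change of the HSC markers was -0.16 (-0.01 over all tested genes). Of the 12, 1 was above 0, as were 6079 of all 13108 tested genes. The summed signal of the HSC markers was 13714 to 14313 in *Ltbr*-/- and 15554 to 15909 in Ly5.1 replicates. *Kit* was 5393 ± 192 in *Ltbr*-/- and 5981 ± 127 in Ly5.1 (SD, n = 3; limma adjusted p = 0.154, but 3.01e-04 after quantile normalization, with a log2 fold change of -0.34), *Slamf1*, which encodes CD150, 263 ± 3.39 and 298 ± 29.0 (adjusted p = 0.220), and *Cd48* 25.2 ± 3.28 and 25.1 ± 4.49. *Ly6a*, which encodes Sca-1, was lower in *Ltbr*-/- (567 ± 22.2 against 744 ± 20.7, adjusted p = 0.00160), as were the progenitor markers *Cd34* (log2 fold change -0.31, adjusted p = 0.00434) and *Flt3* (-0.28, adjusted p = 0.0355), although *Flt3* kept an adjusted p under 0.05 only in 1 of the 6 fits that left out 1 replicate, the one without *Ltbr*-/- replicate 2, and had 0.0593 to 0.178 in the others. All 10 granulocyte markers were tested, and 8 were lower at an adjusted p under 0.05, against 4.18% of all tested genes. None of the 10 was called with the fold threshold, against 2.78% of all tested genes. Their summed signal was 43066 to 43581 in *Ltbr*-/- and 56422 to 60854 in Ly5.1 replicates. Of 10 B cell markers 4 were tested, of which *Ighm* (-1.04) and *Igkc* (-1.21) were lower and *Cd79a* (0.62) higher. The summed signal of the 4 was 1387 to 1522 in *Ltbr*-/- and 2241 to 2405 in Ly5.1 replicates, while the defining markers *Ms4a1* (1.15 and 1.16) and *Pax5* (1.71 in both) were near 1. Summed T cell markers (257 to 267 against 253 to 289) and NK cell markers (1108 to 1228 against 1169 to 1289) overlapped. Of the 2 and 5 tested, none was called by limma (2.78% of all tested genes were) or had an unadjusted p under 0.05 (27.1% did). *Emr1* (0.83), *Cma1* (1.32) and *Hba-a1* (0.99), markers of macrophages, mast cells and erythroid cells, were called higher. Centred on ribosomal protein genes, *Cd79a* and *Emr1* became -0.26 and -0.05, which is 0.63 and 0.84 above the median gene in that scaling. *Cd27* is known from lymphocytes and progenitors, and *Fas* and *Tnfrsf9* from activated lymphocytes. The part of other cells in their differences was not tested.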

How the data were processed

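RNA-seq reads of 6 samples were assembled by the authors with SeqMan NGen and quantified with ArrayStar, with expression given as regularized logarithms from Bioconductor per the study's methods. The submitters' processing notes name DESeq2 and the builds GRCm38 and mm10. The deposited files hold 1 signal per gene and sample, taken as 2 to the power of the regularized log because values are positive, of similar median (3.84 to 3.86 on the log2 scale) and 1 in the same 9034 names. Counts were not analysed here, so depth and counting error are unknown and precision rests on 3 replicates per genotype.

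Groups and replicate numbers came from the sample labels. Of 26595 entries, 26216 unique names remained. The log2 signal was fitted with limma 3.58.1 (lmFit, eBayes with trend) in R 4.3.3, without a block and without a pseudocount. Names in the upper 50% by mean were tested. The model was tested on simulated data. mRNA lengths came from GENCODE and positions and promoters from RefSeq, both of GRCm38. All 10 genes are described. Beyond them are named the called genes of each list or else the 2 with the smallest adjusted p, tested genes within 0.25 Mb of *Ltbr*, the 3 closest profiles, the sort markers and called markers. Other genes were named after their values were seen. Genes and lists were chosen with earlier results of these data known. Of the B cell markers, 1 is not reported here.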

Additional observations from a re-analysis of the deposited data

How the results depend on the processing

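Replicates with the same number did not deviate together (correlation 0.03, -0.01 and 0.09 for numbers 1, 2 and 3), which shows no shared deviation; the labels do not say whether the numbers mark shared chimeras. With the replicate number as a block, limma called 364 genes and 1 of the 10 described, as without it, and *Cd27* and *Fas* had adjusted p of 0.00457 and 0.0309. Leaving out each sample in turn gave 342 to 407 called genes, 1 described gene, 2 neighbours of *Ltbr* and log2 fold changes of *Fas* of 0.21 to 0.31. Without a trend *Fas* stayed at 0.26 (adjusted p = 0.0512). With the upper 25% of names, 0 described genes and 0 other receptors were called, since *Ltbr* and *Tnfrsf9* were then not tested. Quantile normalization left 1 called neighbour, as *Tpi1* fell to 0.56, and gave 261 higher and 28 lower genes in place of 356 and 8. Within 5 Mb, 8 of 105 tested neighbours were called, against 2.78% of all tested genes. Without a fold threshold, 1936 genes, 3 described genes, 5 neighbours, 1 other ligand, 4 adaptor or NF-κB genes and 1 target were called. Centring on 81 ribosomal protein genes gave a median of -0.89 over all tested genes and called 12037 genes, 0 of them higher, with 9 described genes, 38 neighbours, 5 ligands, 12 receptors, 26 adaptor or NF-κB genes and 9 targets. It gave -0.83 for *Ltb* and *Tnfsf14*, -0.98 for *Tnfrsf14*, -0.86 for *Tnf*, -1.06 for *Tnfrsf1a*, -1.08 for *Tnfrsf1b*, -1.28 for *Cd27* and -0.62 for *Fas*, which is 0.27 above that median. Per coding kb, 6 of 10 levels kept their place. Depth is unknown, and shrinkage limits what weak genes such as *Lta* can show.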
